A study of Rattus norvegicus with 458 samples.

Results

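The glandular and the non-glandular stomach of the rat were compared by small RNA sequencing. The comparison used every library whose tissue label named one of these stomach regions, which gave 10 glandular and 10 non-glandular libraries of a rat microRNA (miRNA) atlas of 23 tissues whose other tissues gave 195 libraries. The same 10 naïve Sprague Dawley rats gave both regions, 5 males numbered 2 to 6 and 5 females numbered 7 to 11, aged 12 to 13 weeks. The rats received no treatment, and the comparison was of region within rat. The tissue was pieces of stomach and not isolated mucosa, and the organ had been removed with a length of duodenum still attached. Each value below counts reads of a miRNA name in such a mixed piece, so fewer cells of a type and less RNA per cell cannot be told apart.

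The rat stomach has a forestomach, the non-glandular region, lined by keratinized stratified squamous epithelium, and a glandular region lined by columnar epithelium with mucous, acid-secreting, enzyme-secreting and endocrine cells. Both regions share an outer smooth muscle wall, connective tissue, vessels and enteric nerves. miRNAs are short RNAs cut from hairpin precursors that repress messenger RNAs mainly through pairing of their seed, the bases from position 2 to position 8. miR-205 and the miR-203 family are known from stratified squamous epithelia, the miR-200 family from epithelial cells of any type, miR-375 from endocrine and secretory cells, miR-192, miR-194 and miR-215 from intestinal epithelium, and miR-143 with miR-145 from smooth muscle and fibroblasts.

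The mature sequences of the main epithelial miRNAs are given 5′ to 3′ from RefSeq for the rat build GRCr8, with the seed in capitals, and miR-215, which was not called between the regions, is shown beside miR-192-5p because they share a seed.
miR-205: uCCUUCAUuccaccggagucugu
miR-203a-3p: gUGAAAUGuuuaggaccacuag
miR-31a-5p: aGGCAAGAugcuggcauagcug
miR-375-3p: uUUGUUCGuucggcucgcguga
miR-192-5p: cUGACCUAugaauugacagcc
miR-215: aUGACCUAugauuugacagaca
miR-194-5p: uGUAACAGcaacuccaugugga
miR-148a-3p: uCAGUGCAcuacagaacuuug
miR-200c-3p: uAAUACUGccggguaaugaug
miR-141-3p: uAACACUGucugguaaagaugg

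miR-205 maps to chr13:107564588-107564610 on the minus strand, miR-203a-3p to chr6:137020756-137020777 on the plus strand, and miR-31a-5p to chr5:108714906-108714927 on the minus strand. miR-375-3p maps to chr9:83906591-83906612 on the minus strand and miR-148a-3p to chr4:81664447-81664467 on the minus strand. miR-192-5p, at chr1:212994232-212994252 on the plus strand, and miR-215, at chr13:99383003-99383024 on the plus strand, share the seed UGACCUA. An identical miR-194-5p is cut from a precursor beside each of them, at chr1:212994038-212994059 on the plus strand and at chr13:99382730-99382751 on the plus strand, and the mature starts lie 194 bases apart in the pair with miR-192 and 273 bases apart in the pair with miR-215. miR-200c-3p (chr4:159209969-159209989 on the minus strand) and miR-141-3p (chr4:159209540-159209561 on the minus strand) start 429 bases apart and differ within the seed, AAUACUG against AACACUG. RefSeq mature entries matched 262 of the 309 single mature names tested.

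Assigned counts ranged from 4740551 to 17725805 per glandular library and from 4933863 to 9484960 per non-glandular library. RNA integrity numbers were 8.39 ± 0.563 (SD, n = 10) in the glandular and 8.74 ± 0.19 in the non-glandular tissue, a difference of -0.35 (exact two-sided sign-flip test over rats, p = 0.125). By the median Pearson correlation of log2(CPM + 1) with the libraries of each of 23 tissues, each of the 20 stomach libraries was closest to its own label (0.953 to 0.972 glandular, 0.951 to 0.972 non-glandular), ahead of the opposite region (0.940 to 0.960 and 0.929 to 0.958). The glandular library of rat 3 was nearer to jejunum (0.949) than to the non-glandular stomach (0.940), and the nearest tissue outside the stomach gave 0.909 to 0.949 for the glandular and 0.889 to 0.939 for the non-glandular libraries.

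Several glandular libraries stood apart before any comparison. The glandular library of rat 3 was the deepest, at 17725805 counts against at most 7431565 in the other 9, and held 12303 CPM (counts of a name scaled to a common library total) of miR-215 and 66.5 CPM of miR-122-5p, a hepatocyte miRNA, where the other 9 glandular libraries held 8.70 to 80.6 and 0.193 to 3.83 CPM. The glandular libraries of rats 10 and 11 summed to 319 and 186 CPM for the pancreatic acinar miRNAs miR-216a, miR-216b and miR-217, against 0.394 to 0.913 CPM in the other 8 glandular and 0 to 1.70 CPM in the non-glandular libraries. The glandular library of rat 4 had 40.5% of its counts on sequences with 1 extra leading base (1.01% to 1.36% in the other 9), although names are counted whatever the end. The main results are therefore also given without rats 3, 4, 10 and 11, and the first of them without rats 8 and 10, whose non-glandular libraries had the lowest non-glandular shares of miR-143-3p. The plot of these markers by library shows the 4 libraries.

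**Figure D1:**
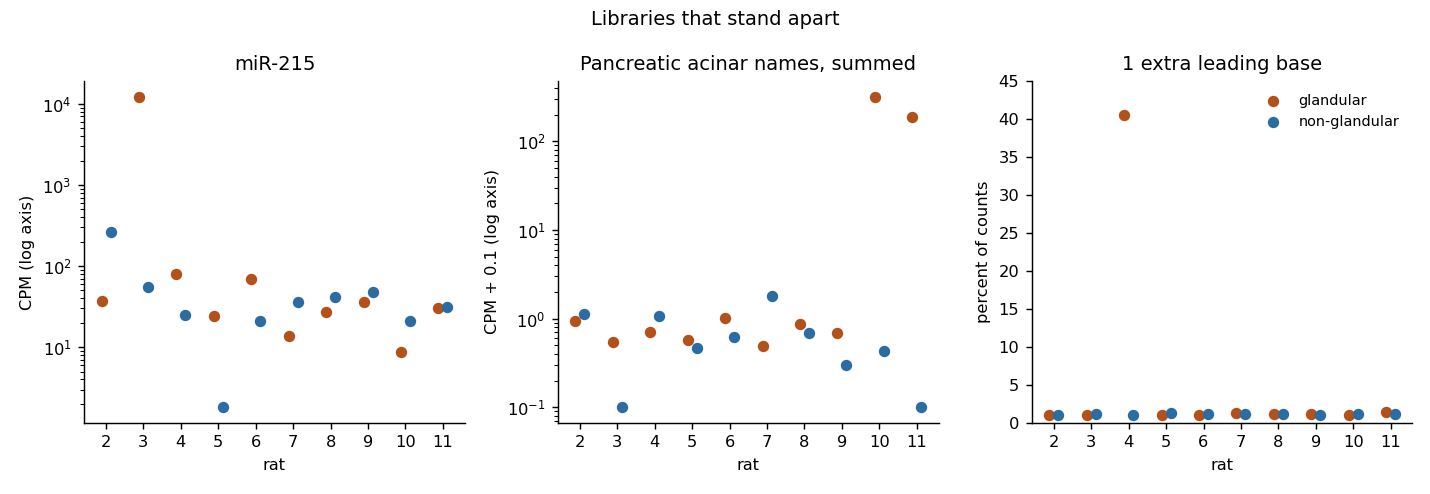
Levels that set single stomach libraries apart, by rat, for glandular and non-glandular libraries (1 point per library; CPM on log axes, with 0.1 added to the acinar sum, and share of counts in percent). The rat 3 glandular library is at 12303 CPM of miR-215, rats 10 and 11 are at 319 and 186 CPM of summed acinar miRNAs, and rat 4 has 40.5% of counts with 1 extra leading base.

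A single miRNA took most of the counts of every library. The authors state that ligase bias affected how well this sequencing measured quantities, so counts of different miRNAs need not follow their amounts. miR-143-3p was the most abundant name in all 20 libraries, with 74.3% ± 3.39 of glandular and 84.1% ± 3.14 of non-glandular counts (SD, n = 10 each), and its share was higher in the non-glandular region of 10 of 10 rats (difference -9.81 percentage points, exact sign-flip p = 0.00195, the smallest that 10 rats allow). The 10 most abundant names together took 89.6% and 95.0% of counts. Non-glandular libraries thus had a smaller share of counts left for all other names, and 371 of 420 tested names had the higher mean CPM in the glandular stomach. The test scaled libraries by the upper quartile of their counts and blocked by rat (edgeR quasi-likelihood, Benjamini-Hochberg threshold 0.05); log2 values are glandular over non-glandular on this scale unless library totals are named, and adjusted p-values are from this edgeR fit unless an exact test is named.

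On the upper-quartile scale 78 names were higher in the glandular stomach (18.6% of 420) and 66 in the non-glandular stomach (15.7%), or 34.3% in either direction. Scaling by library totals alone moved the median log2 difference over all 420 names from -0.08 to 0.85 and gave 264 glandular (62.9%) and 8 non-glandular calls (1.9%, with 64.8% called in either direction), so the share of calls that were glandular went from 54.2% to 97.1%. Totals taken without miR-143-3p gave 73.7% and a median of 0.14, and TMM scaling gave 101 (24.0%) and 63 calls (15.0%), with 39.0% of names called and 61.6% of calls glandular. Other choices moved the balance the other way, with 55 glandular and 85 non-glandular calls (39.3% glandular) among single mature names only, and 63 and 89 (41.4%) in the deep runs only. The 78 glandular calls were all called on library totals as well, had the higher CPM in 10 of 10 rats, and in 62 of them no glandular library overlapped a non-glandular one (96 of all 420 names, 22.9%, were separated this way). Library totals called 264 of all 420 names in this direction, and 371 of 420 had the higher mean CPM there. The agreement on totals and CPM is therefore not independent support for the 78 calls. Of the 66 non-glandular calls, 8 were called on both scales, 47 had the higher mean CPM in the glandular stomach, and 21 were called higher in the glandular stomach on library totals. Without rats 3, 4, 10 and 11 the calls were 46 and 45, of which 46 and 44 were among those of the full set, and without rats 8 and 10 they were 60 and 63 (60 and 58 shared). Each library had been sequenced on 1 of 2 deep flow cells, and with that flow cell as a term the calls were 77 and 65 (76 and 64 shared).

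**Figure D2:**
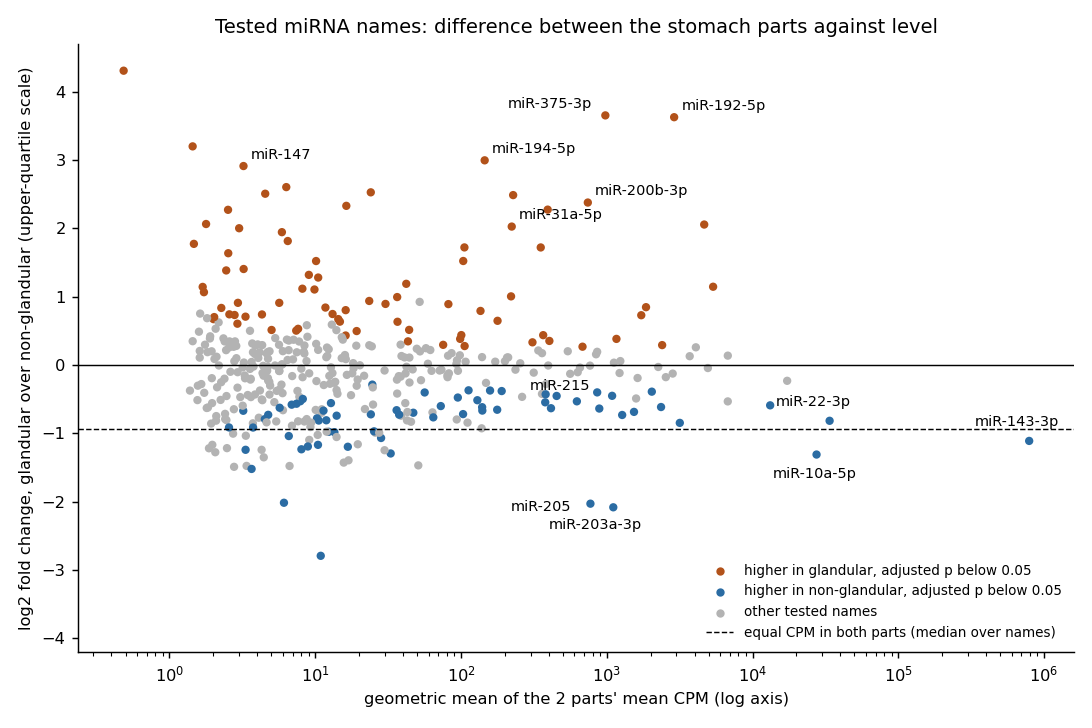
Log2 difference between glandular and non-glandular stomach (glandular over non-glandular, upper-quartile scale) against level (geometric mean of both regions' mean CPM, log axis) for the 420 names tested, with called names coloured by direction and a dashed line where CPM would be equal. The largest glandular differences among abundant names are those of miR-375-3p (3.65) and miR-192-5p (3.63), and miR-203a-3p (-2.08) and miR-205 (-2.03) lie on the other side.

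The squamous miRNAs miR-205 and miR-203a-3p were lower in the glandular stomach on both scales. miR-205, which is known for its high level in the basal layer of stratified epithelia, ranged from 189.6 to 949 CPM with a median of 575 in the glandular libraries and from 579 to 1383 CPM with a median of 1064 in the non-glandular libraries. It was higher in the non-glandular stomach of 10 of 10 rats although the ranges overlapped, because the non-glandular library of rat 3, at 579 CPM, lay below the rest of its group (964 to 1383 CPM). Its difference was -2.03 (SE 0.17, adjusted p = 2.7e-06) and -1.09 on library totals (adjusted p = 0.00173). It was -1.92 without rats 3, 4, 10 and 11 and -1.84 without rats 8 and 10. A predicted name that includes the miR-205 precursor, with means of 4.43 CPM and 8.41 CPM, moved alike (-2.01 on the upper-quartile scale).

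miR-203a-3p, a miRNA of the differentiating layers of the epidermis that represses the stem cell factor p63, ranged from 349 to 1397 CPM with a median of 733 in the glandular libraries and from 1079 to 1911 CPM with a median of 1587 in the non-glandular libraries. All 10 rats had the higher CPM in the non-glandular stomach, with overlap of the ranges (log2 -2.08, SE 0.15, adjusted p = 8e-07; library totals -1.15, adjusted p = 0.0004; -2.01 without rats 3, 4, 10 and 11). The mean CPM was 2.04-fold higher in the non-glandular stomach, and that of miR-205 1.94-fold. Both miRNAs were still abundant in the glandular libraries, where the lowest held 349 CPM of miR-203a-3p and 189.6 CPM of miR-205.

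The remaining names of the squamous list did not follow. miR-31a-5p, also known from keratinocytes, was higher in the glandular stomach. It ranged from 334 to 1029 CPM with a median of 557 in the glandular libraries and from 41.3 to 187 CPM with a median of 66.4 in the non-glandular libraries. The groups did not overlap (log2 2.03, SE 0.16, adjusted p = 1.8e-06; 2.07 without rats 3, 4, 10 and 11), although the non-glandular library of rat 8, at 187 CPM, was above the other non-glandular libraries (41.3 to 107 CPM). Its other arm, miR-31a-3p, gave 2.00 at mean levels of 8.26 and 1.09 CPM. miR-184 was not called (0.69, adjusted p = 0.293). Of the 5 list names tested, 2 were thus higher in each direction and 1 was not called, with a median of 0.69 against -0.08 over all names.

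**Figure D3:**
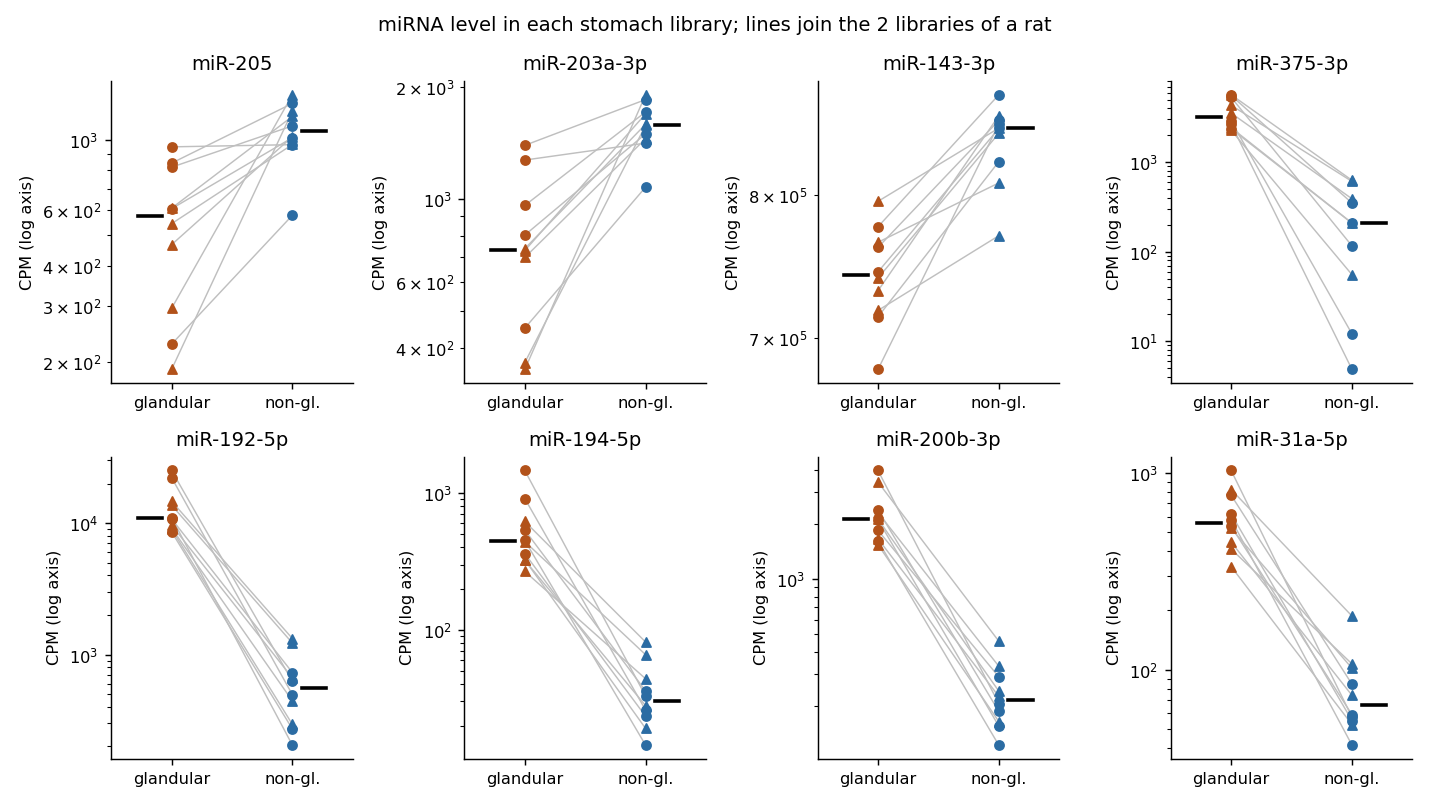
CPM (log axis) of 8 miRNAs in the glandular and non-glandular stomach, with a line joining the libraries of each of the 10 rats, circles for males, triangles for females and a black bar at the median. The lines of miR-205 and miR-203a-3p rise toward the non-glandular stomach in 10 of 10 rats, and those of miR-375-3p, miR-192-5p, miR-194-5p, miR-200b-3p and miR-31a-5p fall with no overlap.

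Gland and endocrine miRNAs were higher in the glandular stomach. miR-375-3p, which is abundant in pancreatic islets and other hormone-secreting cells, ranged from 2274 to 5667 CPM with a median of 3208 in the glandular libraries and from 4.84 to 627 CPM with a median of 209 in the non-glandular libraries. No library of one region overlapped the other, and mean CPM differed 14.3-fold (log2 3.65, SE 0.61, adjusted p = 0.00055). The non-glandular libraries spread widely, with the lowest at 4.84 CPM, and the difference was 4.67 without rats 3, 4, 10 and 11 (adjusted p = 0.00832). miR-7a-5p, also an endocrine miRNA, ranged from 8.23 to 27.4 CPM with a median of 13.8 in the glandular libraries and from 0.436 to 2.93 CPM with a median of 1.38 in the non-glandular libraries (log2 2.51, SE 0.22, adjusted p = 4.5e-06). It was scarce in both regions.

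The composite name that holds miR-148a-3p, a miRNA of secretory cells that here shares reads with a predicted precursor carrying the miR-152-3p seed, ranged from 8006 to 28419 CPM with a median of 10704 in the glandular libraries and from 958 to 2245 CPM with a median of 1568 in the non-glandular libraries. The groups did not overlap (log2 2.06, SE 0.19, adjusted p = 5.6e-06). Since miR-148a-3p is the leading miRNA of the pancreas in this atlas (median 600300 CPM), the value without rats 3, 4, 10 and 11 was computed and was 1.84 (adjusted p = 0.00044). The matching 5p name gave 1.72, and the minor arm miR-7a-1-3p gave 0.70. All 5 tested names of the endocrine and gland list were thus higher in the glandular stomach, against 18.6% of all names, with a median of 2.06. They are miR-375-3p, the miR-148a names and the miR-7a arms, so arms of the same miRNA count separately.

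Intestinal epithelial miRNAs divided. miR-192-5p, which is abundant in gut, liver and kidney epithelia, ranged from 8592 to 25177 CPM with a median of 10889.9 in the glandular libraries and from 204 to 1322 CPM with a median of 559 in the non-glandular libraries. Its groups did not overlap and mean CPM differed 21.4-fold (log2 3.63, SE 0.21, adjusted p = 2.3e-07). Its cluster partner miR-194-5p ranged from 268 to 1460.0 CPM with a median of 446 in the glandular libraries and from 14.4 to 81.5 CPM with a median of 30.4 in the non-glandular libraries (log2 3.00, SE 0.26, adjusted p = 4.3e-06). Without rats 3, 4, 10 and 11 the differences were 3.78 for miR-192-5p and 2.98 for miR-194-5p, and both were called. miR-194-3p, the minor arm, was nearly absent from the non-glandular stomach (means 3.1 and 0.0757 CPM, 4.31).

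miR-215, which has the seed of miR-192 and a precursor beside the other miR-194 copy, was not called (log2 -0.46, SE 0.84, adjusted p = 0.702). It ranged from 8.7 to 12303 CPM with a median of 33.4 in the glandular libraries and from 1.81 to 265 CPM with a median of 33.5 in the non-glandular libraries, and the medians were nearly equal. Single libraries set its range: rat 3 among the glandular libraries (the next held 80.6 CPM) and rat 2, at 265 CPM, among the non-glandular ones (the next held 55.1 CPM). Without rat 3 its difference was -0.87 (adjusted p = 0.288), and in a fit without the rat block it was 3.85 (adjusted p = 0.039). The glandular stomach thus carried the miR-192 branch of this seed family without a comparable level of miR-215, except in rat 3. What sets rat 3 apart was not tested.

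miR-147 and miR-92b-3p were also among the largest glandular differences. miR-147, induced in macrophages and epithelial cells by inflammatory stimuli, ranged from 5.48 to 23.6 CPM with a median of 8.33 in the glandular libraries and from 0 to 3.81 CPM with a median of 0.717 in the non-glandular libraries (log2 2.91, SE 0.38, adjusted p = 9e-05). In the non-glandular group rat 8 was highest at 3.81 CPM, above the 0 to 1.48 CPM of the others. miR-92b-3p, with the seed of the miR-25 and miR-92 family, ranged from 45.8 to 115 CPM with a median of 65.4 in the glandular libraries and from 2.03 to 20.1 CPM with a median of 6.12 in the non-glandular libraries (log2 2.53, SE 0.25, adjusted p = 1e-05). Neither name overlapped between regions.

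The miR-200 family, which keeps epithelial cells epithelial by repressing ZEB1 and ZEB2, was higher in the glandular stomach throughout. All 9 tested names were called, against 18.6% of all names higher in this region, with a median log2 difference of 2.28. The 9 include both arms of some precursors and a composite name, so they are not independent. The summed level of the 13 family names with a count was 3492 to 9407 CPM in the glandular and 320.0 to 1222 CPM in the non-glandular libraries, with no overlap. miR-200b-3p ranged from 1548 to 3955 CPM with a median of 2128 in the glandular libraries and from 122 to 456 CPM with a median of 217 in the non-glandular libraries (log2 2.38, SE 0.12, adjusted p = 2.2e-07; 2.49 without rats 3, 4, 10 and 11). miR-200a-3p (2.49), miR-429 (2.28), miR-200a-5p (2.33) and miR-200b-5p (2.61), which share a precursor transcript with it, differed by similar amounts. The members of the other cluster differed less, with 1.72 for miR-141-3p and 1.52 for miR-200c-3p. miR-200c-3p ranged from 149 to 377 CPM with a median of 230.5 in the glandular libraries and from 23 to 66 CPM with a median of 41.7 in the non-glandular libraries. None of the 3p members named here overlapped between regions.

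To set epithelial miRNAs against each other independently of library scaling, 12 names were expressed as log2 ratios to the summed miR-200a-3p, miR-200b-3p, miR-200c-3p, miR-141-3p and miR-429 within each library (exact sign-flip tests over 10 rats, Benjamini-Hochberg over 12). The sum of these 5 names was 5317 ± 1759 CPM in the glandular and 628 ± 261 CPM in the non-glandular stomach (SD, n = 10). Per unit of miR-200, miR-205 was -4.23 and miR-203a-3p -4.28 (both exact adjusted p = 0.00391), in 10 of 10 rats. The family sum was higher in the glandular stomach of 10 of 10 rats, and the CPM of both names was lower there. Their direction and exact p on this ratio were therefore fixed beforehand, and the sizes include the difference of the family itself. miR-375-3p (1.68) and miR-192-5p (1.43) still exceeded the family in 10 of 10 rats (both exact adjusted p = 0.00391). So did miR-194-5p in 9 of 10 rats (0.80, exact adjusted p = 0.0067). The highest glandular ratio of miR-194-5p was -1.73, against a glandular median of -3.51. For miR-192-5p the lowest glandular ratio (0.98) lay above the highest non-glandular one (0.47). None of the 12 ratios was computed without the libraries that stood apart, so the part of those libraries in them was not tested. Differences from the family were not detected for the miR-148a name (-0.13 ± 0.66 SD, exact adjusted p = 0.547), miR-31a-5p (-0.17 ± 0.33 SD, exact adjusted p = 0.162), miR-7a-5p (0.27, exact adjusted p = 0.326), miR-92b-3p (0.34, exact adjusted p = 0.162) or miR-147 (0.81, exact adjusted p = 0.0527). miR-143-3p was -3.30 and miR-378a-3p -1.05 on this ratio (both exact adjusted p = 0.00391). For miR-143-3p, also lower in glandular CPM in 10 of 10 rats, the direction was likewise fixed, and its difference on library totals was -0.18.

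The smooth muscle pair was lower in the glandular stomach on the upper-quartile scale. miR-143-3p ranged from 679631 to 795265 CPM with a median of 742349 in the glandular libraries and from 770173 to 878595 CPM with a median of 851507 in the non-glandular libraries, overlapping between regions, and differed by -1.11 (SE 0.14, adjusted p = 7e-05; -1.16 without rats 3, 4, 10 and 11). On library totals, where it makes up most of the total, its difference was -0.18 (adjusted p = 0.00064). miR-145-5p (-0.85), miR-143-5p (-0.72) and miR-145-3p (-0.64) were called in the same direction on the upper-quartile scale but were 0.08, 0.21 and 0.29 on library totals, where the last was called higher in the glandular stomach (adjusted p = 0.0416). For these 3 names the direction depended on the scaling.

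**Figure D4:**
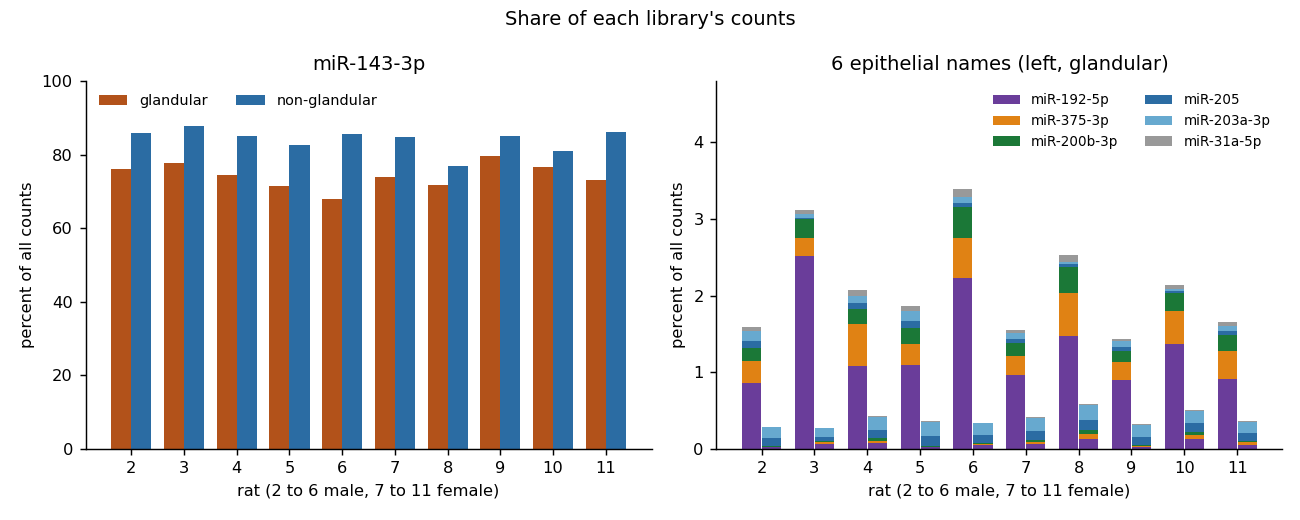
Percent of each library's counts, by rat, taken by miR-143-3p (left panel, 1 bar per library) and by 6 epithelial miRNAs stacked on one another (right panel, glandular bar on the left of each pair), with axes from 0. The miR-143-3p share averages 74.3% in the glandular and 84.1% in the non-glandular libraries, and miR-192-5p is the tallest segment of each glandular stack.

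Of the other abundant names, miR-10a-5p, which is encoded in a Hox cluster, was lower in the glandular stomach on both scales. It ranged from 14999 to 48169 CPM with a median of 22065 in the glandular libraries and from 25674 to 39054 CPM with a median of 29635 in the non-glandular libraries (log2 -1.31, SE 0.15, adjusted p = 2.6e-05; library totals -0.38, adjusted p = 0.033; -1.28 without rats 3, 4, 10 and 11). In 8 of 10 rats the non-glandular CPM was higher, and the glandular library of rat 7 was the highest glandular one at 48169 CPM. miR-22-3p (-0.81) and miR-27b-3p (-0.59) were called lower in the glandular stomach, while on library totals they were 0.12 and 0.34. miR-26a-5p (-0.23, adjusted p = 0.0918) and miR-10b-5p (-0.53, adjusted p = 0.0595) were not called.

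Apart from miR-205, its precursor-linked name, miR-203a-3p, miR-143-3p and miR-10a-5p, the non-glandular calls on both scales were miR-365-3p (-1.29), miR-488-3p (-1.52) and a composite of mir-615-pre with a predicted name carrying the miR-615-3p seed (-2.79), which are named after their values were seen. The last was the only one of 420 names (0.238%) with every non-glandular library above every glandular one, at 14.1 to 27.5 CPM against 1.92 to 11.4 CPM. miR-615, like miR-10a, is encoded within a Hox cluster. miR-365-3p had means of 28.9 CPM in the glandular and 37.4 CPM in the non-glandular stomach and was higher in the non-glandular stomach of 9 of 10 rats. miR-488-3p was below 10 CPM in every library.

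Lists of miRNAs that mark other cells of the wall were counted in the same fit, beside 18.6% glandular and 15.7% non-glandular calls over all names and an overall median of -0.08. Among leukocyte miRNAs 4 of 6 were higher in the glandular stomach (median 0.62), with miR-142-3p at 1.11, miR-223-3p at 0.94, miR-142-5p at 0.79 and miR-146a-5p at 0.44, whereas miR-150-5p (0.05) and miR-155-5p (-0.03) were not called. The summed leukocyte level was 481 to 1049 CPM in the glandular and 151 to 349.7 CPM in the non-glandular libraries. Separation on the CPM scale was not particular to this list. The endothelial sum was 1716 to 2914 CPM and 774 to 1504 CPM, although no endothelial name was called. Of the 12 names of the proliferation-linked miR-17-92 and miR-106b-25 clusters 7 were higher in the glandular stomach (median 0.68), led by miR-92a-1-5p (1.41) and miR-19a-3p (1.39). Among the 4 names of the miR-183 cluster, known from sensory and some epithelial cells, 3 were higher (miR-96-5p 1.32, miR-182 0.85, miR-183-5p 0.65). miR-204-5p (1.01) and miR-34c-5p (0.64) were higher, and miR-34a-5p was not called (-0.29).

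In the other direction, 8 of the 11 names of miR-99, miR-100 and miR-125, which are cut from shared transcripts with let-7, were lower in the glandular stomach (median -0.56), with miR-125b-5p at -0.73 and miR-100-5p at -0.63. On library totals their median was 0.36, so this direction also depended on the scaling. Of 23 let-7 names 3 were lower and none higher (median -0.08), as for let-7i-5p (-0.68; 0.24 on library totals). The fibroblast list had 4 of 13 names lower, of which 3 hold miR-10a and 1 is miR-218a-5p (-0.98), and 1 higher, miR-199a-5p (0.28). In the miR-322 cluster miR-322-5p was higher (0.52) and miR-351-5p lower (-0.37, but 0.56 on library totals), with 5 of 7 names not called.

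No name was called among 7 of striated muscle, 4 of red blood cells, 2 of endothelium and 2 of glia, with medians of -0.06, 0.04, 0.11 and -0.14. The summed striated muscle level ranged from 945 to 9398 CPM in the glandular and 578 to 6853 CPM in the non-glandular libraries, so these miRNAs varied widely between pieces of the same region. Among 6 neuronal names only miR-153-3p was called (2.27, means 7.4 and 0.86 CPM). The pancreatic acinar and the miR-196 names fell below the count filter, and none was tested. The part that these other cells have in the differences above was not tested.

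**Figure D5:**
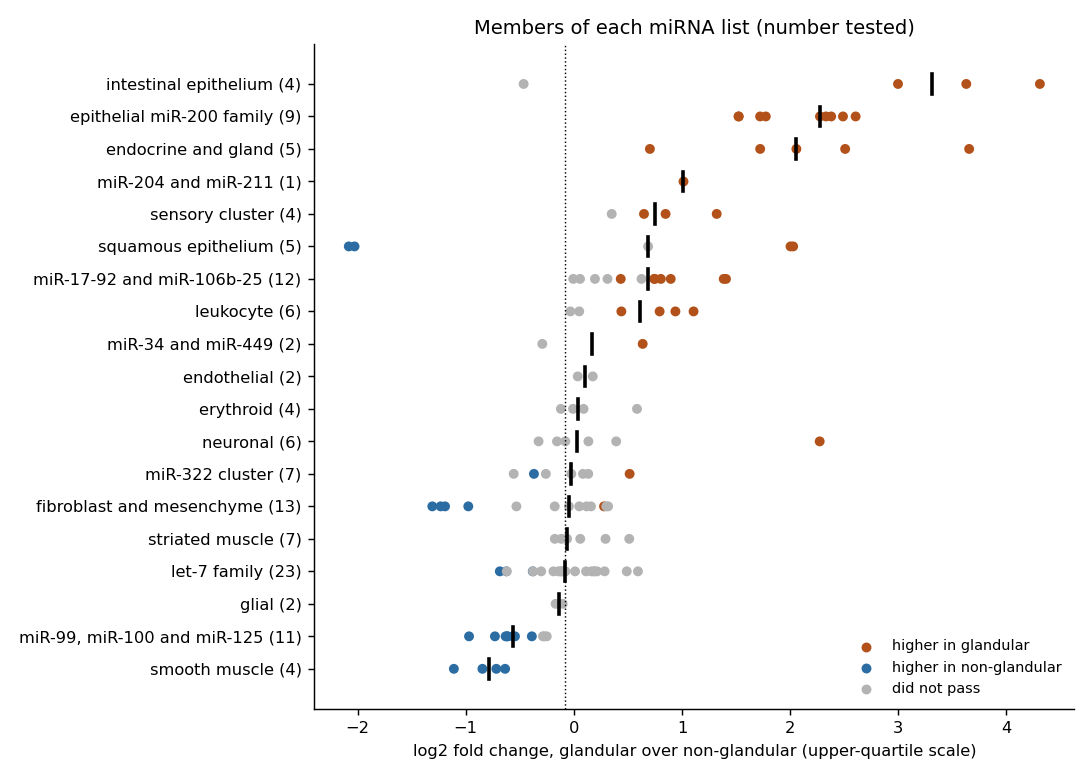
Log2 difference between glandular and non-glandular stomach (upper-quartile scale) of each tested name in the miRNA lists, one row per list, with called names coloured by direction, a tick at each list's median and a dotted line at the median of all names. The 9 miR-200 names all lie on the glandular side with a median of 2.28, and the 4 smooth muscle names lie on the non-glandular side with a median of -0.78.

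Some pairs of epithelial miRNAs varied together across the libraries of a region. Of 10 relations computed over log2 CPM across the 10 rats within a region, 4 passed the adjusted threshold in permutation tests. miR-205 and miR-203a-3p rose and fell together in the glandular libraries (Pearson's r = 0.941, permutation p = 0.00017, adjusted 0.0008; Spearman's rho = 0.891, permutation p = 0.00117) and in the non-glandular libraries (r = 0.963, permutation p = 8e-05, adjusted 0.0008; rho = 0.915, permutation p = 0.0005). Without the 2 libraries farthest from the median, r was 0.956 and 0.846. In the non-glandular libraries miR-375-3p moved with miR-192-5p (r = 0.899, permutation p = 0.00024, adjusted 0.0008; rho = 0.879, permutation p = 0.00173) and with miR-200b-3p (r = 0.850, permutation p = 0.00148, adjusted 0.0037; rho = 0.964, permutation p = 9e-05), with r of 0.849 and 0.872 after leaving out 2 libraries. The corresponding values in the glandular libraries were 0.262 (adjusted permutation p = 0.569) and 0.647 (adjusted permutation p = 0.0866). miR-205 was not detectably related to miR-375-3p or miR-200b-3p in either region (r from -0.363 to 0.419). The names in each relation share their libraries and the same total.

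Across the 23 tissues the stomach regions held the 2 highest median levels of miR-205, 1064 CPM non-glandular and 575 CPM glandular, followed by kidney at 123 CPM. They also held the 2 highest median levels of miR-143-3p, ahead of uterus at 580596 CPM. miR-203a-3p ranked 2 in the non-glandular stomach (1587 CPM) and 5 in the glandular stomach (733 CPM). Ileum was highest at 1635 CPM, with jejunum at 1550 CPM and duodenum at 1340 CPM, so it was not particular to squamous tissue here. miR-192-5p reached 224353 CPM in ileum and 175320 CPM in jejunum, far above the 10889.9 CPM of the glandular stomach, and miR-215 reached 389384 CPM in jejunum. miR-375-3p was highest in pancreas (38037 CPM), with the glandular stomach at rank 6 and the non-glandular stomach at rank 13. These ranks are on the CPM scale and were not tested.

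The region difference was compared between sexes as an interaction in the paired edgeR fit. None of 420 names (0.0%) had an adjusted p under 0.05, 22 had an unadjusted p under 0.05, and with TMM scaling none was called either. Within males alone 51 and 50 names were called higher in the glandular and non-glandular stomach, and within females alone 37 and 27. miR-205 gave -1.83 in males and -2.22 in females (difference -0.39, interaction SE 0.32), and miR-203a-3p gave -1.91 and -2.24. The name with the smallest interaction p was miR-10a-5p, at -1.67 in males and -0.94 in females (difference 0.73, SE 0.19, adjusted p = 0.56). It was followed by miR-664-3p (0.64), a name that holds mir-192-pre (-2.25), miR-19b-3p (0.94) and miR-223-3p (-0.76), none called.

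Both arms of a precursor can yield a miRNA, and the log2 ratio of the 5p to the 3p arm was compared for 50 precursors with exact sign-flip tests. For 2 of them (4.0%) the ratio differed. The ratio of miR-322-5p to miR-322-3p was 2.07 ± 0.29 in the glandular and 1.30 ± 0.24 in the non-glandular stomach (SD, n = 10), a difference of 0.77 in the same direction in 10 of 10 rats (exact p = 0.00195, adjusted 0.0488). That of miR-27b was -10.13 ± 0.20 against -9.73 ± 0.16 (difference -0.39, 10 of 10 rats, exact p = 0.00195, adjusted 0.0488). The next were miR-30e (0.43, exact adjusted p = 0.0651), miR-30a (0.26) and miR-126a (-0.14; both exact adjusted p = 0.0781) and miR-142 (-0.30, exact adjusted p = 0.0837), and 16 of 50 had an unadjusted p under 0.05. This ratio does not depend on the scaling of libraries. Leaving out 1 rat gave 0 to 4 calls, with 0.00391 as the smallest exact p that 9 rats allow.

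The share of a miRNA's counts on its most abundant sequence was compared for 115 names, and none was called (0.0%; 15 at an unadjusted exact p under 0.05). The exact p of 0.00195 was reached by miR-93-5p (52.2% ± 12.8 glandular, 62.8% ± 2.27 non-glandular, exact adjusted p = 0.0642), miR-21-5p (36.9% and 44.0%) and miR-183-5p (27.9% and 32.6%). Next were miR-31a-5p (65.5% and 73.1%), miR-182 (22.0% and 29.4%) and miR-30a-3p (39.3% and 46.3%). The glandular library of rat 4, with its extra leading bases, was lowest in these and carries much of the glandular SD. Among names with a RefSeq entry, the leading sequence had the RefSeq start in 94 of 99 and equalled the RefSeq sequence in 55.

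miR-203a-3p is of interest because its reads began at a pair of adjacent bases, which gives different seeds. The most abundant sequences of miR-203a-3p and miR-205 are shown with their own seeds in capitals, as DNA letters from the deposited reads.
miR-203a-3p, RefSeq start: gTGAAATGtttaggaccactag
miR-203a-3p, 1 base later: tGAAATGTttaggaccactagt
miR-205, RefSeq start: tCCTTCATtccaccggagtctg
miR-205, longer form: tCCTTCATtccaccggagtctgt

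Reads with the RefSeq start made up 52.2% ± 7.69 of miR-203a-3p in the glandular and 53.4% ± 2.03 in the non-glandular stomach, and reads starting 1 base later 42.8% ± 4.27 and 44.1% ± 2.15 (SD, n = 10). No difference between regions was detected for either (16 shares compared, exact adjusted p = 1.0 for each), and without rat 4 the later start made up 44.1% and 44.2%. miR-205 began at the RefSeq start in 98.9% of glandular reads without rat 4 and in 98.0% of non-glandular reads. miR-205 and miR-203a-3p therefore differed between regions in level, with no difference in start detected.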

How the data were processed

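Small RNA libraries (TruSeq kit) were made from total RNA of stored tissue pieces, 1 library per animal and tissue. The deposited tables hold un-normalized read counts that the authors obtained by trimming with cutadapt 1.4.1 (version from the submitters' processing notes), quantifying known miRNAs with miRDeep2 against miRBase and adding predicted miRNAs; a read that matched several precursors was given a composite name. The atlas had 458 runs. Runs of a library were summed, 14 that repeat a lane were set aside (0 of the 40 stomach runs), and groups were taken from the tissue label. Of 7534 names, 3385 had a count in the 20 stomach libraries and 420 passed edgeR's filterByExpr. Of the 420, 309 were single mature names, 24 composite, 80 predicted and 7 precursor names. Names with any predicted component, such as that of miR-148a-3p, were classed as predicted. Paired libraries came from the same animal by the labels, and rat was a block in the model; deviations of same-rat libraries from their group means had a median correlation of -0.073 (10 pairs), against -0.019 for different rats (90 pairs).

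Tests used edgeR 4.0.16 (upper-quartile scaling, quasi-likelihood, R 4.3.3) with Benjamini-Hochberg adjustment at 0.05, and DESeq2 1.42.0 as an alternative. Ratios, shares and integrity numbers were tested by exact two-sided sign flips over 10 rats (1024 flips), and correlations by 100000 permutations, with Python 3.11.15 and scipy 1.17.1. Arm ratios used precursors with both arms at a mean count of at least 20 and a pseudocount of 0.5, and sequence shares used names with at least 100 counts in every library. The scripts were tested on simulated data. Named miRNAs are miR-205 and miR-143-3p, members of the lists, the 12 largest differences in each direction among single or composite names called in the same direction in 10 of 10 rats with at least 10 CPM (3 non-glandular names met this), the 6 most abundant per region, and the smallest p-values for sex (5), arms (6) and sequences (6). The members and lists were chosen with earlier results of these data known. Depth was 4740551 to 17725805 counts per library; reads carry no molecular identifiers. Other scalings, no filter, no block, single names only, all tissues in 1 model and leaving out each rat were tried as alternatives. So were the shallow flow cell alone, the deep runs of both deep flow cells together, and the deep flow cell as a term. Scaling on library totals and leaving out sets of rats were chosen after seeing the data.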

Additional observations from a re-analysis of the deposited data

Results flagged for a closer look

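Single libraries were compared with the other 9 of their region for 53 named miRNAs, the library total and the RNA integrity number, 110 groups in all, by Dixon's gap test at its 95% critical value for 10 libraries. For independent groups of normally distributed values chance would flag about 1 in 20, or 5.5 here, and 14 groups were flagged. The groups share their libraries and CPM need not be normally distributed, so 14 cannot be read as an excess over 5.5.

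The widest gaps belonged to miR-215, where the glandular library of rat 3 held 12303 CPM (others 8.70 to 80.6 CPM) and the non-glandular library of rat 2 held 265 CPM (others 1.81 to 55.1 CPM). The same glandular library of rat 3 had the highest total, 17725805 counts (others 4740551 to 7431565). Among the squamous miRNAs, the low library was non-glandular rat 3 for miR-205 at 579 CPM (others 964 to 1383 CPM), and non-glandular rat 3 for miR-31a-3p at 2.16 CPM (others 0.405 to 1.33 CPM) was high. The non-glandular library of rat 8 was high for several names, with 3.81 CPM of miR-147 (others 0 to 1.48 CPM), 187 CPM of miR-31a-5p (others 41.3 to 107 CPM) and 50414 CPM of miR-22-3p (others 25279 to 37513 CPM). The glandular library of rat 7 was high for 48169 CPM of miR-10a-5p (others 14999 to 31990.3 CPM), 15732 CPM of miR-10b-5p (others 4635 to 10170.1 CPM) and 682 CPM of miR-100-5p (others 359 to 478 CPM). The remaining flags were miR-194-3p at 0.332 CPM in the non-glandular library of rat 3 (others 0 to 0.154 CPM), miR-142-5p at 467 CPM in the glandular library of rat 6 (others 157 to 285 CPM), and the composite with mir-615-pre at 11.4 CPM in the glandular library of rat 2 (others 1.92 to 6.96 CPM). What sets these libraries apart was not tested.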

How the results depend on the processing

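The rat block changed no call of the squamous, gland or miR-200 names of the report; without the block 85 glandular and 77 non-glandular names were called (77 and 64 shared with the blocked fit), and miR-215, at 3.85, and miR-26a-5p became calls. Library totals alone gave 264 and 8 calls, totals without miR-143-3p 137 glandular calls, and on library totals the log2 difference turned positive for miR-22-3p (0.12), miR-26a-5p (0.70), miR-27b-3p (0.34), miR-10b-5p (0.40), miR-215 (0.42), let-7e-5p (0.55), let-7i-5p (0.24), miR-99a-5p (0.38), miR-99b-5p (0.32), miR-100-5p (0.30), miR-125a-5p (0.54), miR-125b-5p (0.20), miR-125b-2-3p (0.31), miR-143-5p (0.21), miR-145-5p (0.082), miR-145-3p (0.29) and miR-351-5p (0.56). Without a count filter 85 glandular and 6 non-glandular names and 14 sex interactions were called, and the sign turned for miR-26a-5p (0.31), miR-10b-5p (0.016), miR-215 (0.032), let-7e-5p (0.16), miR-125a-5p (0.14) and miR-351-5p (0.16). With all tissues in 1 fit and no block, 69 glandular and 39 non-glandular names were called; of the 53 named miRNAs 27 lost their call, 25 did not change in call or direction, and miR-215 was 4.03. Of the same 53, 16 lost their call without a count filter. Requiring a log2 difference beyond 1 left 25 and 5 calls, the shallow flow cell alone 41 and 40 of 205 tested, and leaving out rats 3, 4, 10 and 11 46 glandular calls. Leaving out 1 rat gave 68 to 83 glandular and 59 to 82 non-glandular calls, and 0 to 4 arm calls. The log10 total differed by -0.04 (exact p = 0.566) and by -0.0986 without rat 3 (exact p = 0.0312; range -0.0986 to -0.0200). Among 53 named miRNAs, DESeq2 and its size factors each left 52 and TMM 52 with their call. Fewer names or libraries entered the shallow flow cell, deep run and left-out-rat fits. For the other changes the cause was not tested. Levels near 1 CPM rest on few reads per library, and depth limits what can be said of them.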

Other observations

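Names with any predicted component, which include the miR-148a names, took a larger share of counts in the glandular libraries. The shares were 1.56% ± 0.763 glandular and 0.321% ± 0.128 non-glandular (SD, n = 10), in the same direction in 10 of 10 rats (exact sign-flip p = 0.00195). The miR-148a-3p name alone averaged 13547 CPM glandular and 1603 CPM non-glandular. It made up most of the glandular share, so the difference largely repeats that of miR-148a. Counts on names of unassigned precursor sequence were 0.00946% and 0.00472%, also in 10 of 10 rats. Composite names took 0.181% and 0.0987% (8 of 10 rats, exact p = 0.0488).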
